A study of Mus musculus with 4 samples.

Results

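The response of wild-type (WT) bone marrow macrophages to lipopolysaccharide (LPS) was described across 10036 protein-coding genes. A gene was a member if it reached 1 FPKM (a level per length of transcript and per sequencing depth) or more in either WT library, after transcripts were summed per gene. The tables held 24235 named genes, of which 20529 were protein-coding. At the edge of this rule, Proser3 (1.00 and 0.153 FPKM without and with LPS) and Atad5 (1.00 and 0.895 FPKM) were just inside. Zfhx2 (0.999 and 0.546 FPKM) and Fam199x (0.999 and 0.458 FPKM) were just outside.

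The macrophages were grown with M-CSF, the growth factor of this lineage, from marrow of 7-week-old C57BL/6 mice. The WT library with LPS came from cells given 100 ng/ml for 4 h, and the other WT library was taken as unstimulated from its title, although the treatment text of every sample names LPS. A second pair of libraries, labelled Sema6D-/- and also with and without LPS, came from mice of the same strain and age with a genotype that lacks the semaphorin Sema6D. Each group was 1 library, and the labels do not say how many mice or cultures it held. No difference therefore has a replicate check, no test across libraries was possible, and all values describe these libraries.

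LPS, the outer membrane lipid of Gram-negative bacteria, is bound by Cd14 and by the Tlr4 receptor complex of macrophages. Tlr4 signals through the adaptor Myd88, which leads to NF-kB and AP-1 and to inflammatory cytokines, and through the adaptor Trif (Ticam1), which leads to Irf3 and to interferon beta. Interferon beta then acts on the same cells through its receptor and turns on antiviral genes, so that a response after some hours holds both waves.

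Estimated depth was 17.2 to 23.5 M fragments per library, 23.5 M for WT without LPS and 22 M for WT with LPS. All 14 macrophage markers were measured, with a summed level of 22200.5 FPKM without and 27138.2 FPKM with LPS. Neutrophil markers summed to 872 and 1351 FPKM, against 269 and 437 FPKM in the libraries labelled Sema6D-/-, and 12 of 13 were measured. Few markers of other cells reached 1 FPKM, namely 3 of 10 for dendritic cells, 3 of 11 for T and NK cells, 1 of 8 for B cells, 2 of 12 for erythroid cells and megakaryocytes, 1 of 9 for mast cells and 5 of 12 for stromal and endothelial cells. Cd3d, Cd209a, Mcpt4 and Tpsb2 were listed at 0 in both WT libraries. Genes that every cell uses can also be at or near 0 in these files, such as Hmgcs1 and Rpl26 (listed at 0) and Gapdh (0.212 and 0.162 FPKM), so a level near 0 need not mean that a gene is silent, and the part of other cells in the results was not tested. In such bulk libraries, fewer cells of a type and less RNA per cell cannot be told apart. Sema6d measured 0.304 and 0.219 FPKM in WT and 0.563 and 0.592 FPKM in the libraries labelled Sema6D-/-, which goes against the label, and which part of the gene was removed is not given. The female transcript Xist (22.3 and 21.4 FPKM in WT, 0.0333 and 0.0306 FPKM in the other pair) and the Y-linked Ddx3y (0.00729 FPKM and listed at 0 in WT, against 13.2 and 16.6 FPKM) also separated the genotypes.

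With LPS, 1045 of the 10036 genes (10.4%) had a ratio of 2 or more and 444 (4.42%) a ratio of 0.5 or less, called higher and lower here, and 8547 lay between. Counts within the gene lists below are to be read against these shares. Ratios are log2((FPKM with LPS + 1)/(FPKM without LPS + 1)), called log2 ratios from here on; the added 1 understates the ratio of genes with low values. As deposited, the higher genes reached further than the lower ones. The added 1 limits how far a gene can fall but not how far it can rise. The median lower gene was at 9.79 FPKM without LPS, and the counts below were not repeated with another scaling. By 4-fold or more, 383 genes were higher and 40 lower; by 8-fold, 137 and 2; and by 32-fold, 27 and 0. The median higher gene had a log2 ratio of 1.65 and the median lower gene one of -1.26.

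Genes below 1 FPKM without LPS made up 137 of the 1045 higher genes, and genes below 1 FPKM with LPS made up 85 of the 444 lower ones. The higher genes held 7.83% of all protein-coding FPKM without LPS and 27.7% with LPS, and the share of the lower genes went from 2.2 to 0.5%. The balance depends on scaling between libraries, because protein-coding FPKM summed to 346279 without LPS and 509553 with LPS. With the same total imposed on both libraries, 650 genes were higher and 1355 lower, a split of 32.4% against 70.2% higher among the genes past 2-fold as deposited. That rescaling moved the median log2 ratio of all genes by -0.48, from a median of 0.0, and centring on the median left 938 genes higher and 567 lower.

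**Figure D1:**
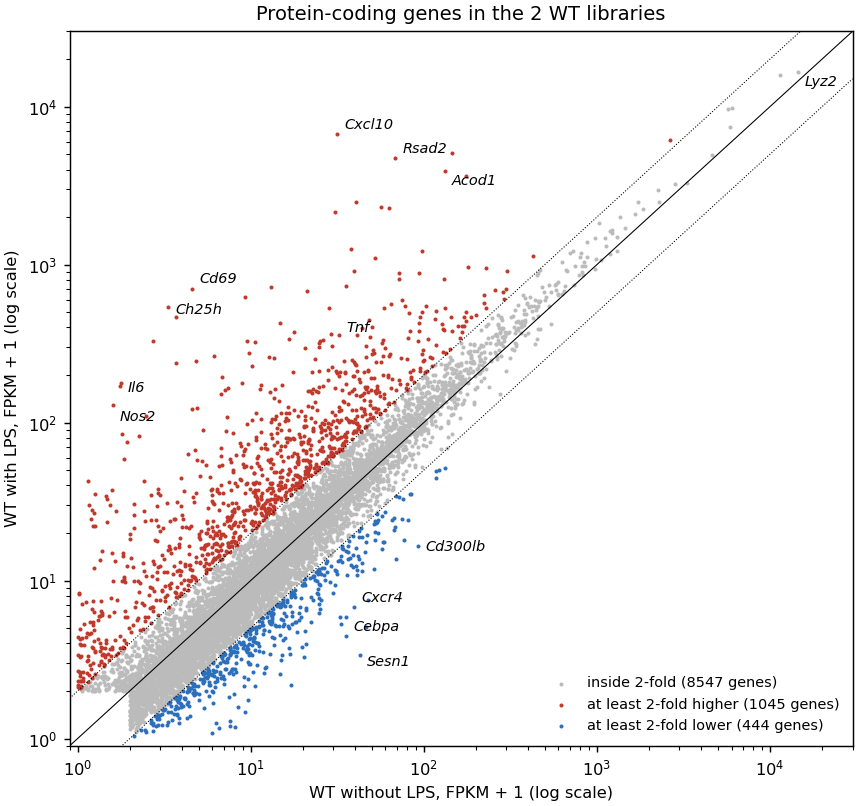
Each point is 1 of the 10036 protein-coding genes, with its FPKM + 1 in the WT library without LPS on the horizontal log axis and in the WT library with LPS on the vertical log axis. The solid line marks equal values and the dotted lines a ratio of 2; the 1045 higher genes (red) spread further from the line than the 444 lower genes (blue).

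A handful of induced messages became some of the most abundant in the cell. Cxcl10, an interferon-induced chemokine that draws activated T cells, went from 30.5 to 6696 FPKM, which made it the sixth most abundant protein-coding gene with LPS, at 1.31% of protein-coding FPKM. Ccl4, a chemokine for monocytes and T cells, went from 145 to 5072 FPKM. Rsad2, the antiviral enzyme viperin, went from 67.4 to 4700 FPKM. Among the 25 most abundant genes with LPS were also Acod1 (131 to 3917 FPKM), which makes itaconate, Ccl3 (174 to 3625 FPKM), Ccl5 (39.5 to 2501 FPKM), Ifit1 (55.6 to 2304 FPKM), Ifit2 (62.4 to 2269 FPKM) and Cmpk2 (29.8 to 2163 FPKM). Lyz2 (lysozyme), Fth1 (ferritin heavy chain) and B2m (the MHC class I light chain) held the first places in both libraries.

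The start regions below were picked because sites for the transcription factors of both waves can be read in them. They therefore do not show how common such sites are among the strongest genes. The letters GAAA, any 2 bases and GAAA again, or their reverse complement, stand for the interferon-stimulated response element (ISRE), to which interferon regulatory factors bind. The letters GGG, any 2 bases, TT, any base and CC, or their reverse complement, stand for an NF-kB site. The sequences are the 250 bases before the RefSeq gene start in GRCm38.p6, 5′ to 3′ on the strand of the gene, with matches in capitals. Rsad2 and Ifi205 hold an ISRE match only, Il6 and Serpina3g an NF-kB match only, and Cxcl10 and Gbp5 hold both, without overlap.
Rsad2 (chr12:26456453-26456702, strand minus): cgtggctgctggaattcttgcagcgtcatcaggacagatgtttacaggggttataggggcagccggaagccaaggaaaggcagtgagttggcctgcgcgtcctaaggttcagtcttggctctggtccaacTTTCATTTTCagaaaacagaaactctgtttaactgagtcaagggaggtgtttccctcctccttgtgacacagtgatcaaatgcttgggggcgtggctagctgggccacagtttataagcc
Ifi205 (chr1:174031756-174032005, strand minus): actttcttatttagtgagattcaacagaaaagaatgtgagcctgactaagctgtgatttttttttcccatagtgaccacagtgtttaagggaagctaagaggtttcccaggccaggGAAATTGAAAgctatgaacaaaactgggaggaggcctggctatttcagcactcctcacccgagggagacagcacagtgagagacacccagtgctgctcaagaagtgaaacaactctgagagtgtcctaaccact
Il6 (chr5:30012864-30013113, strand plus): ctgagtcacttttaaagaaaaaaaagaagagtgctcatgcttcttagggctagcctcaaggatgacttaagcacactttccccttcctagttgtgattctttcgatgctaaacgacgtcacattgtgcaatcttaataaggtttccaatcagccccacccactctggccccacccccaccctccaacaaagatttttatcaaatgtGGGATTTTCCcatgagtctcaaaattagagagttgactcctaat
Serpina3g (chr12:104235897-104236146, strand plus): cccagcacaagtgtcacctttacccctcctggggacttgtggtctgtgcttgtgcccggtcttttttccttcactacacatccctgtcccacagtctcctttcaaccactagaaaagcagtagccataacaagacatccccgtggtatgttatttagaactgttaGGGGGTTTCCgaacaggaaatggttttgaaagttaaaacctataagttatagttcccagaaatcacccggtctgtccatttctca
Cxcl10 (chr5:92348890-92349139, strand minus): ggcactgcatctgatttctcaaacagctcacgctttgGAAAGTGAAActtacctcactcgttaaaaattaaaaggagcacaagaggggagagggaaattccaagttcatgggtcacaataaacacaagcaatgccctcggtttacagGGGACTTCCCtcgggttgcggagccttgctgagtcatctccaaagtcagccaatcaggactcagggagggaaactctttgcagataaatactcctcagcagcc
Gbp5 (chr3:142496684-142496933, strand plus): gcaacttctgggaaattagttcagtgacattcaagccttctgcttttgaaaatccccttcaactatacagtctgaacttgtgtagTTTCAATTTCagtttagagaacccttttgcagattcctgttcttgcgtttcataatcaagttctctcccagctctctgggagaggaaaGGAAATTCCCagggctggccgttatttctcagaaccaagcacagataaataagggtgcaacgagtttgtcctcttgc
In Cxcl10, the ISRE match lay 213 to 204 bases and the NF-kB match 103 to 94 bases before the start, and in Gbp5 they lay 165 to 156 and 77 to 68 bases before it.

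Across genes with 1 RefSeq start, 6522 of the 10036 members, the ISRE letters were found on either strand in 10.6% of 672 genes at least 2-fold higher. They were in 31% of the 84 genes at least 8-fold higher, in 1.15% of 262 genes at least 2-fold lower and in 2.2% of 5588 genes inside 2-fold. Of all 22862 RefSeq promoters with 1 start, 3.11% held them. The NF-kB letters were in 8.48, 13.1, 4.58 and 4.31% of the same 4 groups and in 3.98% of all promoters. The AP-1 letters TGANTCA were in 7.44, 19, 5.73 and 3.74%, and in 6.96% of all promoters. Motifs were counted separately, so a base can be part of several matches, and a match is a description of letters and not of binding.

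Read the other way, 8 of the 12 genes whose promoter held both the ISRE and the NF-kB letters were at least 2-fold higher (66.7%). The share was 63 of 185 (34.1%) with the ISRE letters only, 49 of 298 (16.4%) with the NF-kB letters only and 552 of 6027 (9.16%) with neither. The strongest genes also differed in base composition from the other measured genes, but not in CpG count from all promoters. Genes at least 8-fold higher had a median of 5 CpG in the 250 bases, as did all 22862 RefSeq promoters with 1 start. The median was 18 in genes at least 2-fold lower and 17 in genes inside 2-fold. The TATA letters TATAAA were searched on the strand of the gene only, 45 to 16 bases before the start. They were in 8.33% of genes at least 8-fold higher (7 of 84) and in 2.23% of genes at least 2-fold higher. The share was 3.44% of genes at least 2-fold lower, 0.895% of genes inside 2-fold and 2.58% of all promoters.

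**Figure D2:**
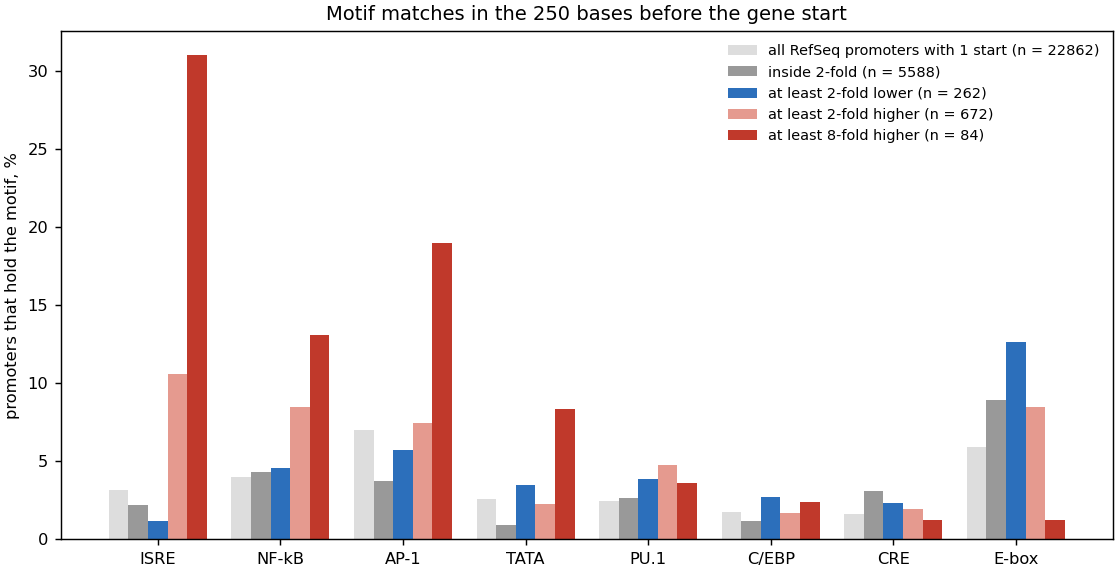
Bars give the percent of promoters (250 bases before the gene start) that hold each motif on either strand, for all RefSeq promoters with 1 start and for genes grouped by their LPS ratio in WT. TATA is the exception, searched on the strand of the gene only, 45 to 16 bases before the start. The dark red bars, 84 genes at least 8-fold higher, stand above the other groups for ISRE (31%), NF-kB (13.1%), AP-1 (19%) and TATA (8.33%) and below them for E-box.

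Cytokines and chemokines, the secreted ligands of the response, held some of the highest ratios. Of 16 measured interleukins 12 were higher and 0 lower, with a median of 2.64, and 11 and 1 with a common total. Il27 (0.774 to 178 FPKM, log2 ratio 6.66), whose protein pairs with Ebi3 to form interleukin 27, led the list, while Ebi3 itself was already at 143 FPKM and reached 221 FPKM (0.62). Il1a went from 0.146 to 41.4 FPKM (5.21), Il15 from 6.44 to 165 FPKM (4.48) and Il12b, the p40 subunit of interleukins 12 and 23, from 0.253 to 26.0 FPKM (4.43). The p35 subunit Il12a and the p19 subunit Il23a stayed below 1 FPKM, at 0.923 and 0.428 FPKM with LPS. Il16, a ligand of Cd4, was at 3.99 and 1.99 FPKM (-0.74).

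Of 11 measured CC chemokines 9 were higher and 0 lower (median 2.62; 7 and 0 with a common total), and their summed share of protein-coding FPKM went from 0.257 to 2.79%. Ccl12, a monocyte chemoattractant, went from 12.1 to 725 FPKM (5.80). Ccl6 stayed level at 134 and 135 FPKM (0.01). Of 10 CXC chemokines 5 were higher and 1 lower. The neutrophil chemoattractants Cxcl2 (10.4 to 104.5 FPKM, 3.21) and Cxcl3 (0.834 to 13.2 FPKM, 2.96) and the interferon-induced Cxcl9 (0.168 to 29.3 FPKM, 4.70) were higher. Cxcl14 was lower, at 3.35 and 0.701 FPKM (-1.35), and Cxcl16, a scavenger receptor and chemokine, was at 82.0 and 159 FPKM (0.95), just inside 2-fold.

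In the TNF superfamily 9 of 21 members were higher and 2 lower (median 0.58), and 7 and 4 with a common total (median 0.09). Tnfsf10, the death ligand TRAIL, went from 1.47 to 109 FPKM (5.47), and Tnfsf15 from 0.264 to 34.2 FPKM (4.80). The costimulatory receptor Cd40 went from 9.53 to 323 FPKM (4.94). Tnf itself was among the higher members, at 31.5 and 357 FPKM (3.46), while its receptor Tnfrsf1a was at 79.8 and 153 FPKM (0.93). Tnfrsf21, a death domain receptor, was lower (15.9 to 5.95 FPKM, -1.28), as was the ligand Tnfsf14 (1.90 to 0.416 FPKM, -1.04).

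Growth factors were mixed, with 5 of 13 higher and 2 lower, and 5 of each with a common total. Csf1, the gene of M-CSF itself, went from 1.12 to 29.4 FPKM (3.84), whereas its receptor Csf1r was at 644 and 685 FPKM (0.09). Edn1, the vasoconstrictor peptide endothelin 1, went from 0.861 to 57.8 FPKM (4.98). Inhba, a subunit of activin A, was at 0.342 and 2.57 FPKM (1.41). Tgfb3 was lower (1.83 to 0.202 FPKM, -1.24), and Tgfb1, the more abundant family member, was at 161 and 209 FPKM (0.37). Among 30 cytokine receptors 8 were higher and 2 lower (3 and 2 with a common total, where the median of 0.41 turned to -0.10). The highest ratio was that of Il15ra (0.939 to 74.0 FPKM, 5.27), the receptor chain that presents Il15. Il6ra (26.6 to 10.4 FPKM, -1.28) and Tgfbr1 (24.6 to 10.1 FPKM, -1.21) were the 2 lower receptors, and Il6ra stood against the higher level of its ligand Il6, at 0.759 and 169 FPKM.

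The receptors that recognise microbes moved unevenly. Of 19 genes for Toll-like receptors and LPS recognition 6 were higher and 0 lower (median 0.77), and 3 and 1 with a common total. Tlr3, the sensor of double-stranded RNA, went from 3.32 to 62.2 FPKM (3.87) and Tlr2, the sensor of bacterial lipoproteins, from 57.0 to 330 FPKM (2.51). Cd14, which hands LPS to its receptor, was at 257 and 686 FPKM (1.41). The LPS receptor Tlr4 was inside 2-fold at 22.1 and 26.4 FPKM (0.25, and -0.26 with a common total), and its partner Ly96 (MD-2) was at 36.6 and 63.0 FPKM (0.77).

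Downstream, 7 of 23 adaptors and kinases were higher and 0 lower (3 and 1 with a common total, where the median of 0.39 turned to -0.09). The higher ones included Myd88 (61.7 to 263 FPKM, 2.07), the kinase Irak2 (18.3 to 80.4 FPKM, 2.07) and the ubiquitin ligase Peli1 (21.7 to 207 FPKM, 3.19). The NF-kB list, which holds its subunits and feedback inhibitors, had 20 of 26 members higher and 0 lower (median 2.07). Its highest ratios were those of Socs1, Socs3, Traf1 and Tnfaip3, in that order. Socs1, a brake on interferon signalling, went from 2.70 to 238 FPKM (6.01), and Socs3, a brake on interleukin 6 signalling, from 9.22 to 226 FPKM (4.47). Tnfaip3 (A20), which removes ubiquitin chains in the NF-kB pathway, went from 10.3 to 162 FPKM (3.85), and the NF-kB inhibitor Nfkbia from 92.8 to 426 FPKM (2.19). With a common total, 17 of the 26 were higher and 1 lower.

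Cytosolic sensors had 12 of 23 members higher and 0 lower (median 1.66), but 5 were lower with a common total. The RNA sensors Ifih1 (MDA5; 15.8 to 337 FPKM, 4.33) and Ddx58 (RIG-I; 26.9 to 213 FPKM, 2.94) and the peptidoglycan sensors Nod1 (6.92 to 85.4 FPKM, 3.45) and Nod2 (1.93 to 34.7 FPKM, 3.61) were all higher. Gsdmd, the pore protein of pyroptosis, was at 45.9 and 89.3 FPKM (0.94).

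The interferon arm was higher from the cytokine to its target genes. Ifnb1, the gene of interferon beta, went from 0.229 to 21.2 FPKM (4.18), on an estimated 4 fragments without LPS and 231 with LPS. For the ratio without the added 1, 6.54, the 95% exact counting interval was 5.16 to 8.43; such intervals cover counting error only. In the list of interferons, JAKs, STATs and IRFs 11 of 23 were higher and 0 lower, and 10 and 1 with a common total. The interferon regulatory factors Irf1 (25.2 to 334 FPKM, 3.68) and Irf7 (227 to 949 FPKM, 2.06), the AP-1 family factor Batf2 (5.85 to 193 FPKM, 4.82) and the feedback protease Usp18 (27.4 to 531 FPKM, 4.23) were higher. Irf5 (168 to 302 FPKM, 0.84) and Irf8 (77.9 to 133 FPKM, 0.76), both already high without LPS, were inside 2-fold.

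Of 71 antiviral interferon-stimulated genes 62 were higher and 0 lower (87.3%, against 10.4% of all measured genes), with a median log2 ratio of 2.58, and 60 with a common total. Their summed share of protein-coding FPKM went from 1.71 to 6.62%. Ch25h, the enzyme that makes 25-hydroxycholesterol, went from 2.34 to 537 FPKM (7.33) and Ifi205, a PYHIN protein, from 1.72 to 327 FPKM (6.92). Cmpk2, a nucleotide kinase whose gene lies beside Rsad2, had a log2 ratio of 6.13. The 2 abundant membrane proteins Ifitm3 (1034 to 1821 FPKM, 0.82) and Ifitm2 (798 to 1109 FPKM, 0.47), which block virus entry, were inside 2-fold. Mx1 is not protein-coding in the annotation used and so is no member, and it was at 11.8 and 321 FPKM.

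All 12 measured guanylate-binding proteins and immunity-related GTPases, which attack vacuoles that hold microbes, were at least 2-fold higher under both scalings, with log2 ratios of 2.72 to 6.98 and a median of 4.20. The files held 19 members, and the rule of 1 FPKM in either library favours those that are high with LPS. Without that rule 12 were still the higher ones, and the median was 3.44. Gbp5 went from 2.70 to 466 FPKM (6.98), Iigp1 from 3.81 to 246 FPKM (5.68) and Gbp2 from 20.3 to 681 FPKM (5.0). Of the 12 measured genes, all 7 with 1 RefSeq start held the ISRE letters in the promoter, like the Gbp5 sequence printed above. In the antiviral list 19 of 48 did (39.6%). Genes of these families are near-identical copies in places (Gbp, Ifi2 and Slfn genes, Tgtp and H2-Q genes), reads may have been split between them, and the levels of single members are uncertain.

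**Figure D3:**
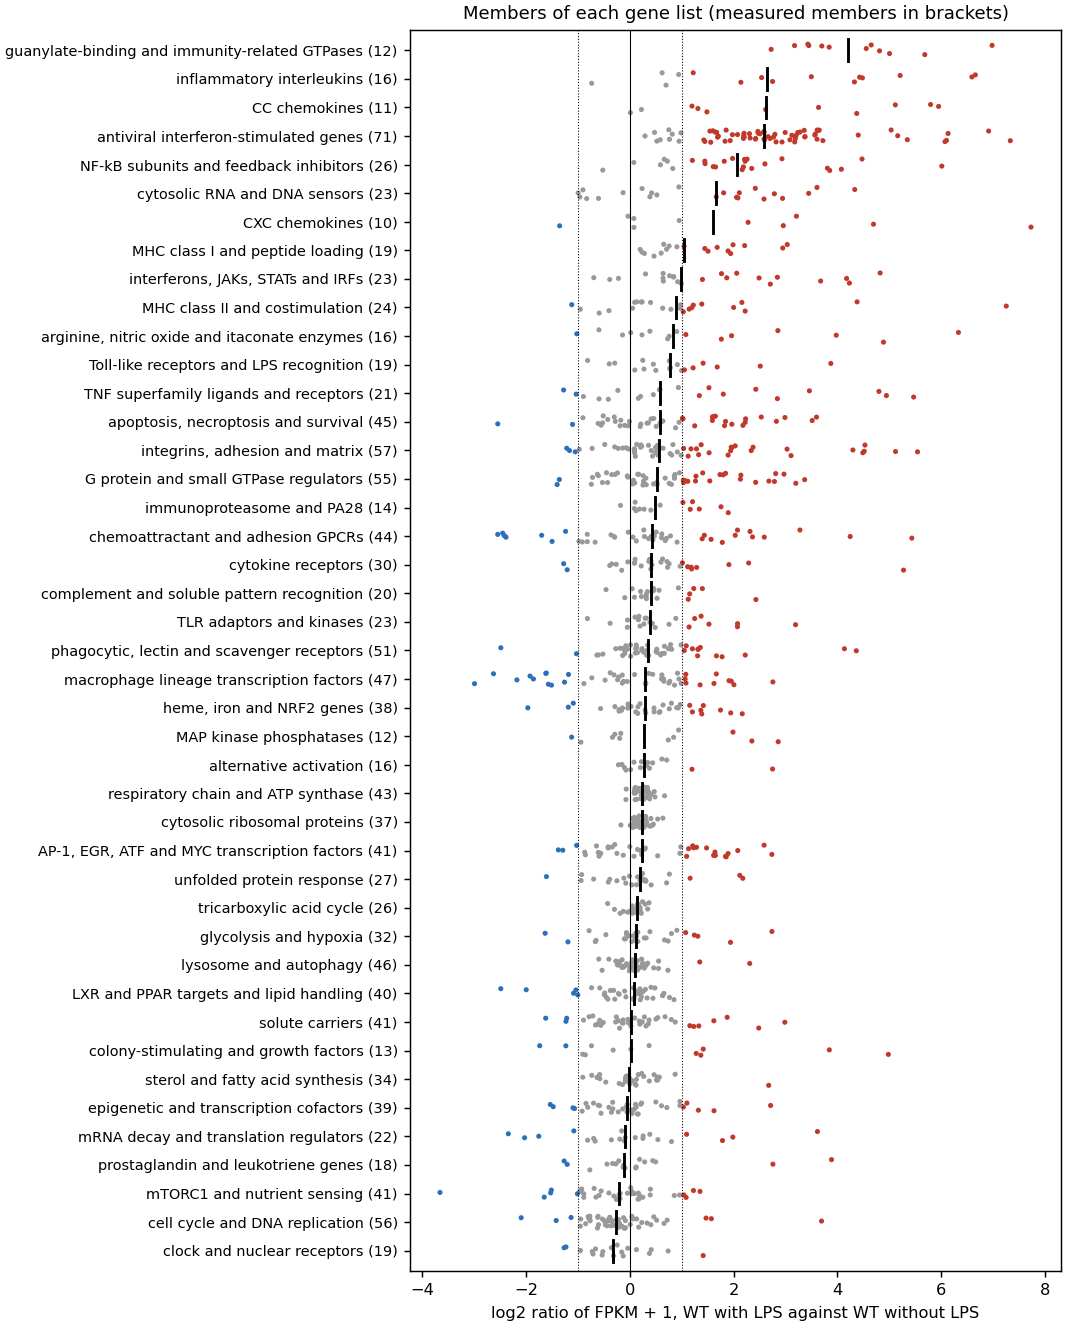
Each point is a measured member of a gene list, placed by its log2 ratio of FPKM + 1 between the WT library with LPS and the one without; red is at least 2-fold higher, blue at least 2-fold lower, grey between, black bars are list medians and dotted lines mark 2-fold. The medians run from 4.20 for the guanylate-binding and immunity-related GTPases to -0.32 for clock and nuclear receptor genes, and the respiratory chain, ribosomal and tricarboxylic acid cycle lists hold grey points only.

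Genes of antigen presentation were also among the higher genes. In the class I and peptide loading list 10 of 19 were higher and 0 lower (median 1.04), and 7 and 0 with a common total. Nlrc5, the transcriptional activator of class I genes, went from 5.52 to 52.4 FPKM (3.03), and the peptide transporter subunits Tap1 (28.3 to 225 FPKM, 2.95) and Tap2 (21.8 to 89.3 FPKM, 1.99) were higher. B2m, the shared light chain, was at 6001 and 9795 FPKM (0.71), and the heavy chain H2-D1 at 971 and 1476 FPKM (0.60). The immunoproteasome subunits Psmb10 (50.7 to 191 FPKM, 1.90), Psmb9 (43.1 to 148 FPKM, 1.76) and Psmb8 (111 to 257 FPKM, 1.21) were higher. Their list had 6 of 14 higher and 0 lower (median 0.49), and 2 and 0 with a common total (median -0.03), where Psmb8 was inside 2-fold (0.68). Psmb6 (92.3 to 139 FPKM, 0.58) and Psmb7 (105 to 139 FPKM, 0.40), 2 of the constitutive subunits they replace, were inside 2-fold.

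In the class II and costimulation list 10 of 24 were higher and 1 lower (median 0.88), and 5 and 3 with a common total (median 0.36). Cd69, an early activation antigen, went from 3.61 to 703 FPKM (7.25), Cd274, the checkpoint ligand PD-L1, from 16.9 to 372 FPKM (4.38) and Slamf7 from 44.0 to 209 FPKM (2.22). The checkpoint receptor Havcr2 (TIM-3) was the lower member, at 19.5 and 8.43 FPKM (-1.12).

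In the list of arginine, nitric oxide and itaconate enzymes 7 of 16 were higher and 1 lower (median 0.83), and 6 and 2 with a common total. Nos2, the inducible nitric oxide synthase, went from 0.598 to 128 FPKM (6.33). Genes that feed it were higher as well, the arginine transporter Slc7a2 (0.482 to 22.3 FPKM, 3.98) and Gch1 (9.72 to 76.4 FPKM, 2.85), which makes the tetrahydrobiopterin cofactor. Arg1, which competes for arginine, stayed below 1 FPKM (0.635 and 0.427). Srm, the spermidine synthase, was lower (14.4 to 6.55 FPKM, -1.02).

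Of 18 prostaglandin and leukotriene genes 2 were higher and 2 lower (11.1% each, against 10.4 and 4.42% of all genes), with a median of -0.11. With a common total, 2 were higher and 3 lower and the median was -0.62. The higher ones were Ptgs2, the inducible cyclooxygenase (6.29 to 107 FPKM, 3.89), and Ptges, the prostaglandin E synthase (1.04 to 12.8 FPKM, 2.76). The constitutive Ptgs1 was lower, at 4.27 and 1.28 FPKM (-1.21). In glycolysis and hypoxia 5 of 32 were higher (15.6%, against 10.4% of all genes) and 2 lower, with a median of 0.12. With a common total, 2 were higher and 3 lower and the median was -0.40. The transporter Slc2a6 (27.1 to 186 FPKM, 2.74) and the regulators Pfkfb3 (25.9 to 102 FPKM, 1.94) and Hif1a (44.5 to 112 FPKM, 1.31) were higher, while the isozyme Pfkfb4 (8.75 to 3.26 FPKM, -1.20) and the Hif hydroxylase Egln3 (6.94 to 1.56 FPKM, -1.63) were lower. The glycolytic enzymes Aldoa (792 and 859 FPKM, 0.12) and Pkm (526 and 547 FPKM, 0.06) were inside 2-fold, while Gapdh was listed at 0.212 and 0.162 FPKM.

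The 26 tricarboxylic acid cycle genes of their list (log2 ratios -0.43 to 0.37) all lay inside 2-fold, under either scaling. So did the 43 measured members of the respiratory chain and ATP synthase list (-0.08 to 0.67) and the 37 of the cytosolic ribosomal protein list (-0.17 to 0.64). The list medians of 0.13, 0.24 and 0.23 were -0.39, -0.29 and -0.27 with a common total, so no direction can be given. Atp5md, an ATP synthase subunit outside the list, was past 2-fold (0.469 to 3.22 FPKM, 1.52), on an estimated 2 and 10 fragments. A further 10 of the 47 ribosomal genes in the files, such as Rpl5 (0.129 and 0.169 FPKM) and Rpl26, were below 1 FPKM in both WT libraries. Of 46 lysosome and autophagy genes 2 were higher and 0 lower (4.3 and 0%, below the 10.4 and 4.42% of all genes), and 1 and 1 with a common total. The 2 were Ctsc (93.6 to 468 FPKM, 2.31), which activates serine proteases, and the channel Mcoln2 (14.1 to 37.3 FPKM, 1.35). In sterol and fatty acid synthesis 1 of 34 was higher, Acsl1 (15.3 to 103 FPKM, 2.67), which activates long-chain fatty acids, and 0 were lower, against 6 lower with a common total.

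Among heme, iron and antioxidant genes 8 of 38 were higher and 3 lower (21.1 and 7.9%, against 10.4 and 4.42% of all genes), and 3 and 4 with a common total. Sod2, the mitochondrial superoxide dismutase, went from 57.5 to 262 FPKM (2.17), Slc7a11, the cystine transporter, from 8.27 to 34.6 FPKM (1.94) and Prdx5, a peroxiredoxin, from 426 to 1137 FPKM (1.41). Osgin1 (17.6 to 3.74 FPKM, -1.97), Gclc (51.7 to 22.2 FPKM, -1.19), which makes the first step of glutathione synthesis, and Slc40a1 (10.7 to 4.47 FPKM, -1.09), the iron exporter ferroportin, were lower. The ferritin heavy chain Fth1 was at 11442 and 15785 FPKM (0.46).

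Sesn1, a stress-induced inhibitor of mTORC1, had the lowest log2 ratio of any gene ranked (41.8 to 2.38 FPKM, -3.66). Next came Rab3il1, an exchange factor for Rab GTPases (45.1 to 4.09 FPKM, -3.18), and Cebpa, a transcription factor of myeloid differentiation (34.5 to 3.45 FPKM, -3.0). Plekhg3, an exchange factor for small GTPases, went from 16.1 to 1.20 FPKM (-2.96), and Cnr2, the cannabinoid receptor of immune cells, from 7.12 to 0.187 FPKM (-2.77). Others among the 30 lowest ratios were Gcnt1 (32.3 to 4.31 FPKM, -2.65), which branches O-glycans, the kinesin Kif21b (13.8 to 1.57 FPKM, -2.53) and Mtss1 (34.6 to 4.91 FPKM, -2.59), which bends membranes with actin. All 30 had at least 5 FPKM without LPS, and the 4 highest of them were Cd300lb, Zfp36l2, Tmem37 (50.3 to 10.8 FPKM, -2.12) and Susd3 (46.8 to 6.52 FPKM, -2.67).

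Transcription factors of the macrophage lineage included 10 of 47 higher and 11 lower, where 10.4 and 4.42% of all genes were. With a common total, 6 were higher and 13 lower. The lower ones included Lyl1 (19.4 to 2.29 FPKM, -2.63), a factor of early blood cells, Tfeb (14.3 to 2.37 FPKM, -2.18), a regulator of lysosomal genes and Fli1 (40.2 to 9.85 FPKM, -1.93), an ETS factor. On the other side Ikzf1 (Ikaros) went from 23.9 to 167 FPKM (2.76), Tfec from 9.30 to 40.3 FPKM (2.0) and Cebpd from 18.5 to 72.5 FPKM (1.91). Members of a family thus went opposite ways, Cebpd up and Cebpa down, and Tfec up and Tfeb down. Spi1 (PU.1), the master factor of the lineage, was at 380 and 516 FPKM (0.44), and its ratio with a common total was -0.09. Of the AP-1, EGR, ATF and MYC factors 15 of 41 were higher and 3 lower, a count of 9 and 10 with a common total. Mafk (11.1 to 71.7 FPKM, 2.59) and Hivep2 (2.84 to 15.2 FPKM, 2.08) were among the higher and Id3 (122 to 49.2 FPKM, -1.29) and Nr4a1 (13.2 to 5.98 FPKM, -1.03) among the lower.

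Among regulators of mRNA decay, 4 of 22 were higher and 4 lower (18.2% each, against 10.4 and 4.42% of all genes), and 3 and 7 with a common total. Zfp36 (tristetraprolin), which destabilises cytokine mRNA, went from 132 to 527 FPKM (1.98), while its relatives Zfp36l2 (68.2 to 12.6 FPKM, -2.34) and Zfp36l1 (21.5 to 4.5 FPKM, -2.03) were lower. Zc3h12c (7.42 to 28.0 FPKM, 1.78) and Zc3h12d (17.9 to 4.60 FPKM, -1.76), both of the regnase family, also went opposite ways. Arid5a, which stabilises Il6 mRNA, went from 1.12 to 25 FPKM (3.62).

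In the mTORC1 and nutrient sensing list 4 of 41 were higher and 5 lower (9.8 and 12.2%, against 10.4 and 4.42% of all genes). With a common total, 1 was higher and 13 lower. With Sesn1, the lower genes included the lysosomal folliculin gene Flcn (19.9 to 5.66 FPKM, -1.65), Castor2, a relative of an arginine sensor, (8.79 to 2.39 FPKM, -1.53) and the AMP kinase subunit Prkag2 (6.68 to 1.69 FPKM, -1.51). Sesn3, a relative of Sesn1, was higher at 0.761 and 3.49 FPKM (1.35). Lipid receptors and their targets had 0 of 40 higher and 5 lower (9 lower with a common total), among them Rxra (23.9 to 5.23 FPKM, -2.0), the shared partner of nuclear receptors, Mylip (32.9 to 15.5 FPKM, -1.04), which degrades the LDL receptor, and Angptl4 (5.59 to 0.175 FPKM, -2.49). Apoe was at 2829 and 3233 FPKM (0.19).

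Chromatin and clock genes included further lower members. Of 39 epigenetic and transcription cofactors 5 were higher (12.8%, near the 10.4% of all genes) and 4 lower, and with a common total 2 and 10. Hdac5 (40.6 to 13.4 FPKM, -1.54) and Hdac7 (4.59 to 1.61 FPKM, -1.10), histone deacetylases of class IIa, were lower, while Hdac1 (5.65 to 15.6 FPKM, 1.32) and Sap30 (30.6 to 206 FPKM, 2.71), a subunit of its complex, were higher. Of 19 clock and nuclear receptor genes 1 was higher and 2 lower (5.3 and 10.5%, against 10.4 and 4.42% of all genes), and 0 and 6 with a common total. The clock genes Per1 (7.35 to 2.55 FPKM, -1.23) and Tef (9.31 to 3.28 FPKM, -1.27) were lower, and Nr3c1, the glucocorticoid receptor, was higher (24.1 to 65.8 FPKM, 1.41).

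Surface receptors for position and attraction changed in both directions, with 12 of 44 G protein-coupled receptors higher and 7 lower. These were 27.3 and 15.9%, against 10.4 and 4.42% of all genes. With a common total, 10 were higher and 12 lower. Ccrl2 (5.13 to 264 FPKM, 5.43), which binds chemerin, Gpr84 (12.6 to 256 FPKM, 4.25), a receptor for medium-chain fatty acids, and Adora2a (1.44 to 22.7 FPKM, 3.28), an adenosine receptor, were higher. Cxcr4, the receptor for the bone marrow chemokine Cxcl12, went from 38.8 to 5.80 FPKM (-2.55). Gpr183, the receptor for the oxysterol that Ch25h helps to make, went from 4.97 to 0.0902 FPKM (-2.45), or an estimated 386 and 5 fragments. S1pr1, the sphingosine 1-phosphate receptor of cell egress, went from 18.8 to 2.78 FPKM (-2.39) and the lysophosphatidic acid receptor Lpar5 from 7.48 to 0.582 FPKM (-2.42). All 4 were also lower in the pair labelled Sema6D-/-, with log2 ratios of -4.41 for Cxcr4, -3.03 for Gpr183, -2.82 for S1pr1 and -2.85 for Lpar5.

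Of 51 phagocytic, lectin and scavenger receptors 12 were higher and 2 lower (23.5 and 3.9%, against 10.4 and 4.42% of all genes), with a median of 0.34. With a common total, 5 were higher and 4 lower (median -0.16). Clec4e (Mincle), a receptor for mycobacterial glycolipid, went from 34.6 to 732 FPKM (4.36), and Olr1, the oxidised LDL receptor, from 1.43 to 41.7 FPKM (4.14). The inhibitory Fc receptor Fcgr2b went from 29.0 to 102 FPKM (1.78). The lower ones were both CD300 receptors, Cd300lb (92.0 to 15.6 FPKM, -2.49) and Cd300a (41.0 to 19.6 FPKM, -1.03), while the signalling adaptors Fcer1g (1728 to 2486 FPKM, 0.52) and Tyrobp (986 to 1080 FPKM, 0.13) were inside 2-fold.

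Adhesion and matrix genes had 22 of 57 members higher and 3 lower (median 0.57), and 18 and 6 with a common total. The collagenase Mmp13 (8.49 to 329 FPKM, 5.12), the heparan sulfate proteoglycan Sdc4 (38.7 to 908 FPKM, 4.52) and the protease inhibitors Serpina3g (0.808 to 83.4 FPKM, 5.54) and Serpina3f (0.211 to 27.0 FPKM, 4.53) were higher. The integrins Itga6 (43.1 to 18.0 FPKM, -1.22) and Itgb5 (41.3 to 17.9 FPKM, -1.16) and the plasminogen activator Plau (36.0 to 16.8 FPKM, -1.05) were lower. G protein and small GTPase regulators had 20 of 55 higher and 2 lower (13 and 6 with a common total), led by Gnb4 (1.88 to 28.7 FPKM, 3.37) and Arhgef3 (5.71 to 60.6 FPKM, 3.20). Rhob was lower at 116 and 43.4 FPKM (-1.40).

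Among complement and soluble recognition genes 5 of 20 were higher and 0 lower, a count of 1 with a common total, and Cfb, complement factor B, led them (50.4 to 276 FPKM, 2.43). C3 was at 144 and 382 FPKM (1.40) and Saa3, an acute phase protein, at 2628 and 6167 FPKM (1.23). C1qb, a subunit of the first complement component, was at 1186 and 1631 FPKM (0.46).

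Survival genes had 18 of 45 members higher and 2 lower (median 0.58), and 15 and 6 with a common total. Bcl2a1b (11.9 to 155 FPKM, 3.60), a survival factor of the BCL2 family with near-identical neighbours, the kinase Pim1 (14.1 to 171 FPKM, 3.51) and Cflar (22.1 to 162 FPKM, 2.82), which blocks caspase 8, were higher. The death-promoting Bmf was lower (6.57 to 0.295 FPKM, -2.55), as was Trp53inp1 (12.4 to 5.21 FPKM, -1.11). Cell cycle genes had 3 of 56 higher and 3 lower (5.4% each, against 10.4 and 4.42% of all genes). With a common total, 3 were higher and 14 lower. The higher ones were Ccnd2, a cyclin of early G1 (1.67 to 33.6 FPKM, 3.69), the cyclin gene Ccne1 and the replication gene Mcm10. The lower ones were E2f2 (11.0 to 1.81 FPKM, -2.10) and the mitotic genes Cdc25b (24.1 to 8.38 FPKM, -1.42) and Bub1b (12.4 to 5.12 FPKM, -1.13).

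Anti-inflammatory and alternative activation genes were few. Il10 went from 13.5 to 96.7 FPKM (2.75) and Ccl22 from 0.443 to 2.31 FPKM (1.20), and these 2 of 16 measured members (12.5%, near the 10.4% of all genes) were higher and 0 lower. With a common total 1 of them, Il10, was higher. The MAP kinase phosphatases had 3 of 12 higher, led by Dusp2 (3.66 to 32.8 FPKM, 2.86), and 1 lower, Dusp7 (21.8 to 9.46 FPKM, -1.12). Dusp1 was at 53.5 and 96.7 FPKM (0.84). In the unfolded protein response 3 of 27 were higher and 1 lower (11.1 and 3.7%, near the shares of all genes), and 2 and 4 with a common total. The higher ones included Ppp1r15a (12 to 55.3 FPKM, 2.12), which restores translation, and the lower one was the sensor kinase Eif2ak3 (5.03 to 0.976 FPKM, -1.61). Of 41 solute carriers 7 were higher and 3 lower, and with a common total 4 and 10, against 10.4 and 4.42% of all genes as deposited. The higher ones were led by the nucleoside transporter Slc28a2 (5.83 to 53.1 FPKM, 2.99), and the lower ones were Slc37a2 (66.8 to 21.0 FPKM, -1.62), Slc43a2 (82.1 to 34.4 FPKM, -1.23) and Slc38a2 (32.4 to 13.3 FPKM, -1.22), the last 2 carriers of neutral amino acids.

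Many higher genes were neighbours on a chromosome. Runs of at least 3 consecutive measured protein-coding genes, all at least 2-fold higher, numbered 43 and held 169 genes, while lower genes formed 1 run of 3. Of all measured genes, 10.4% were higher and 4.42% lower, so runs of higher genes arise more easily in any order. The number of runs in a random order was not worked out. Some runs held no gene family, such as Dnaaf3, Tmem86b and Ppp6r1 on chromosome 7 (1.07 to 1.26). The longest run had 11 genes of the PYHIN family on chromosome 1, which sense nucleic acids, from Aim2 to Ifi205, with log2 ratios of 2.07 to 6.92. A run of 8 on chromosome 11 held Irgm1, Tgtp1 and Ifi47 (1.34 to 3.69), and one of 7 on the same chromosome held the Slfn genes (2.42 to 3.61). A run of 8 on chromosome 19 held Ms4a membrane protein genes (1.19 to 2.50), and one of 6 the Ifit genes (1.70 to 6.07). Runs of 4 held Psmb9, Tap1, Psmb8 and Tap2 on chromosome 17 (1.21 to 2.95) and Ccl2, Ccl7, Ccl12 and Ccl8 on chromosome 11 (1.48 to 5.80). Gene order is that of GRCm38, the genes in these runs were picked after their values were seen, and several are copies of each other whose reads cannot be fully told apart.

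**Figure D4:**
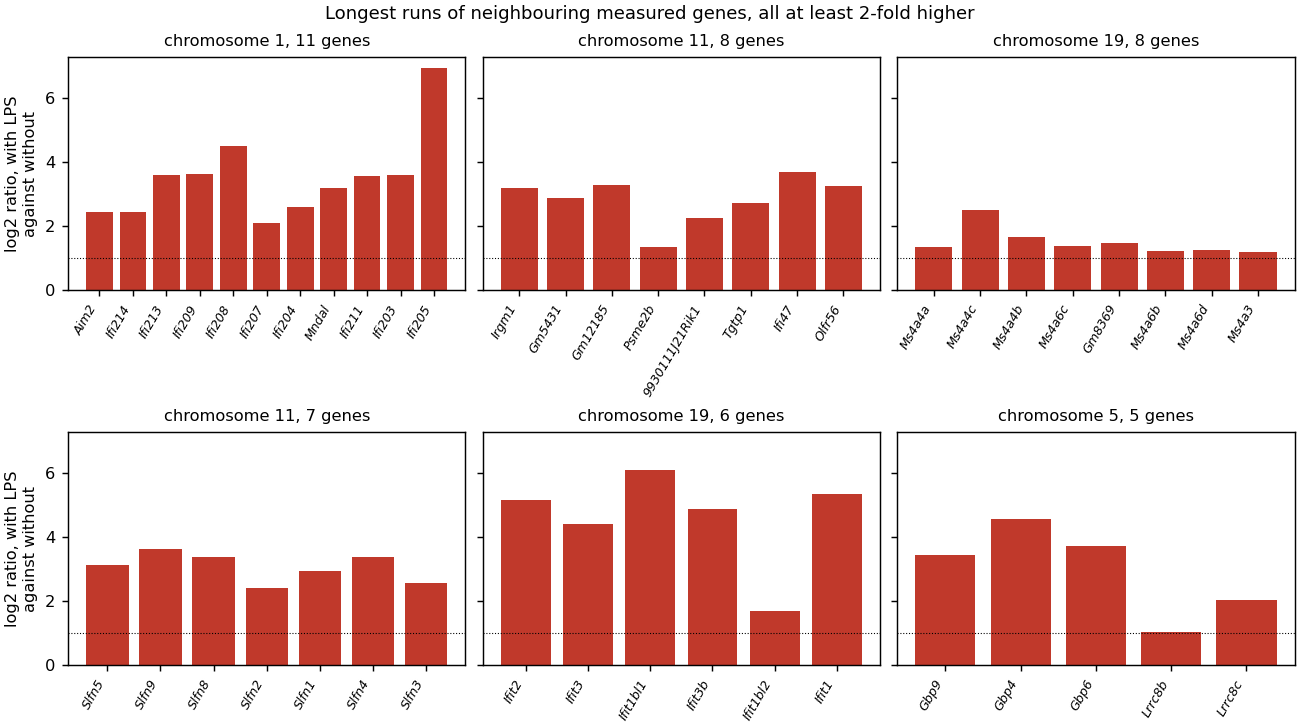
Bars give the log2 ratio of FPKM + 1 in WT, with LPS against without, for the genes of the 6 longest runs of neighbours that were all at least 2-fold higher, in gene order; the dotted line marks 2-fold. The run of 11 on chromosome 1 reaches from 2.07 to 6.92.

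The same genes were compared in the pair labelled Sema6D-/-, where 13.8% of 10086 measured genes passed 2-fold upwards with LPS and 8.43% downwards. Of the 1045 genes higher in WT, 960 (91.9%) were also at least 2-fold higher there, and 1043 had the same sign. Of the 444 lower genes, 382 (86.0%) were also at least 2-fold lower and 441 had the same sign. From the other side, the shared genes were 69.2% of the 1388 higher and 44.9% of the 850 lower genes of that pair. No gene past 2-fold in WT was past 2-fold the other way. The pairs share no library, but differ in depth and in sex-linked genes. Total FPKM was larger with LPS in both pairs (370066 and 534692 in WT, 371243 and 628278 in the other). These shares are as deposited and were not repeated with a common total.

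**Figure D5:**
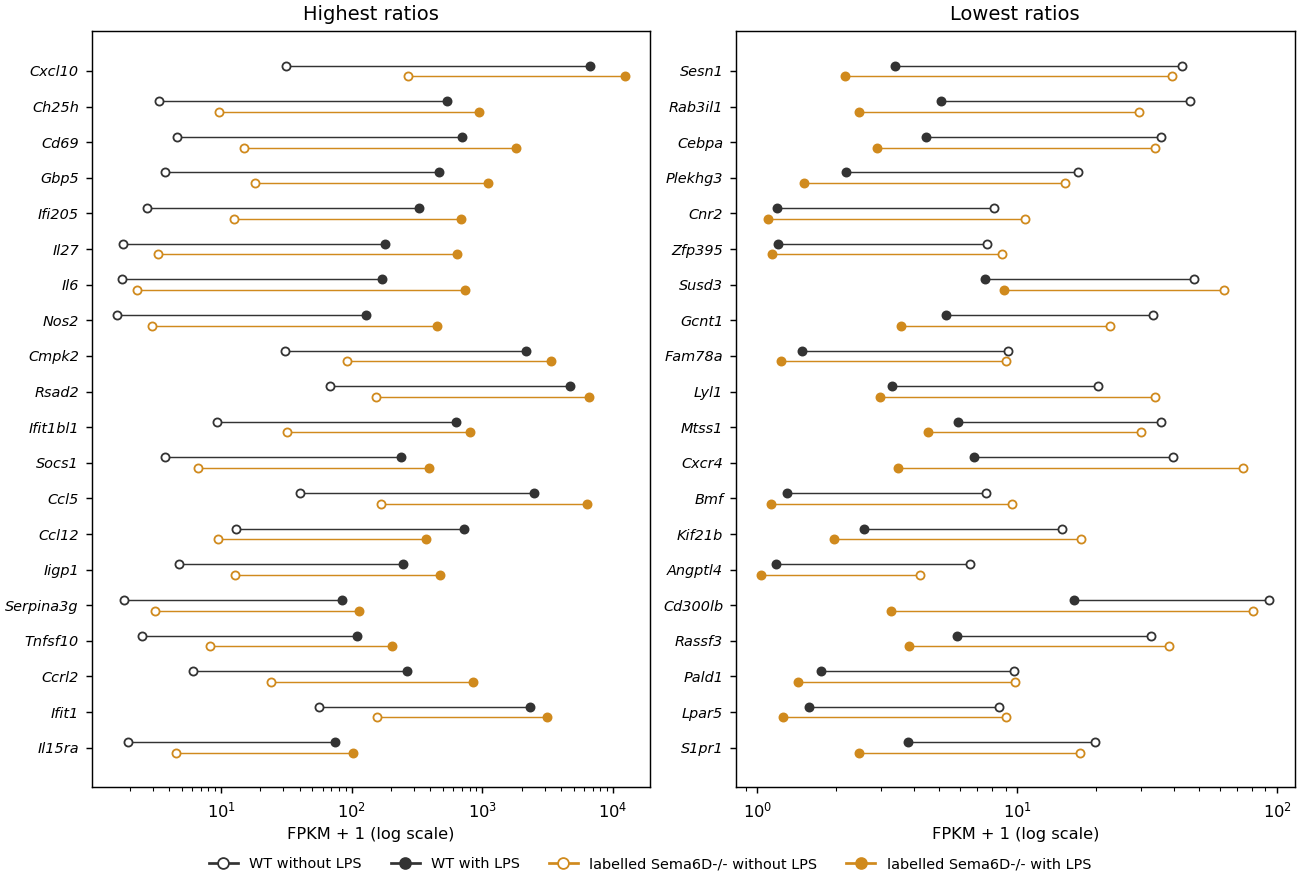
The 20 genes with the highest (left) and the 20 with the lowest (right) log2 ratio in WT among genes at 5 FPKM or more in either WT library, with open circles without LPS and filled circles with LPS, black for WT and orange for the libraries labelled Sema6D-/-, on a log axis of FPKM + 1. For all 40 genes the filled circle lies on the same side of the open one in both pairs; Cxcl10 went from 30.5 to 6696 FPKM in WT and from 267 to 12295 FPKM in the other pair.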

How the data were processed

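The authors deposited 1 FPKM value per RefSeq transcript for each of the 4 libraries, and the kit was a stranded mRNA kit per the labels' protocols. The submitters' processing notes name Cuffnorm 2.2.1, SAMtools 0.1.19, Bowtie2 2.2.3 and TopHat2 2.0.13, with mm9 as the build. Scaling between libraries, annotation version and use of strand are not given in the sources used here, and the labels name 2 different RNA extraction reagents. Of 34487 transcripts, 34159 were named from the GRCm38 RefSeq table and 189 from GENCODE vM21, and 139 were left out. Values were summed per gene. Genes at 1 FPKM or more in either WT library were compared as log2 of FPKM plus 1, with 2-fold as a rule of size. Depth came from whole-number steps of FPKM times transcript length (72.5% of low values within 0.1 of a whole number in both WT libraries, 20% by chance), and exact 95% Clopper-Pearson intervals were set around ratios from those fragments. Named genes were the 30 highest and 30 lowest ratios at 5 FPKM or more, up to 4 genes per direction and 2 inside 2-fold from each of 43 function lists, fixed anchor genes and measured markers from 9 cell type lists. The members and lists were chosen with earlier results of these data known. Python 3.11.15, pandas 2.3.3 and scipy 1.17.1 were used, and the scripts were tested on simulated data. Alternatives were the added constant, the filter, the choice of transcripts, the gene types and the scaling.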

Additional observations from a re-analysis of the deposited data

Results flagged for a closer look

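In 3 genes past 2-fold in WT, the sign of the ratio as deposited was opposite in the libraries labelled Sema6D-/-. Each group was 1 library, and the difference was not tested. For Gdf15 and Prokr1 the ratio in that pair was close to level (0.01 and 0.05), so its sign can turn with scaling. Total FPKM in that pair was 371243 without and 628278 with LPS, and a common total was not applied to it. Gdf15, a stress-induced cytokine, was at 17.3 and 4.49 FPKM in WT without and with LPS (log2 ratio -1.74) and at 4.46 and 4.51 FPKM in the other pair (0.01). Prokr1, a prokineticin receptor, was at 3.33 and 1.13 FPKM in WT (-1.02) and at 1.74 and 1.84 FPKM in the other pair (0.05). Atp5md, a small subunit of ATP synthase, was at 0.469 and 3.22 FPKM in WT (1.52) and at 2.58 and 2.18 FPKM in the other pair (-0.17), on an estimated 2 and 10 fragments in WT.

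Outside the protein-coding genes, 25 of 173 measured long non-coding genes passed 2-fold upwards in the WT pair and 12 downwards. Of the protein-coding genes, 10.4% were higher and 4.42% lower. AW112010 went from 14.4 to 534 FPKM (5.12) and Mir155hg, the host transcript of the inflammatory microRNA miR-155, from 0.244 to 21.9 FPKM (4.20). Morrbid, which lies beside the death-promoting gene Bcl2l11, went from 6.51 to 28.0 FPKM (1.95). Neat1, the scaffold of nuclear paraspeckles, was lower at 199 and 80.0 FPKM (-1.31). In the libraries labelled Sema6D-/- the log2 ratios of AW112010, Mir155hg, Morrbid and Neat1 were 5.10, 4.92, 2.04 and -1.32.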

How the results depend on the processing

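The count of 1045 higher genes ranged from 650 to 1188 over the alternatives, and that of 444 lower genes from 146 to 1355. Rescaling to a common total gave 650 higher and 1355 lower. Lower genes numbered 804 with an added constant of 0.1 FPKM, 146 with 5 FPKM and 280 among genes with 1 transcript. No other alternative moved either count by over 1.5 times. Of the 242 named genes past 2-fold, 216 stayed past it with a common total, 196 with an added constant of 5 FPKM and 236 with the highest transcript alone. With the highest transcript alone, 0 changed direction. The added constant cannot change a sign, and the common total moves ratios too little to reverse a gene past 2-fold. Most of the named genes were picked for large ratios, so these counts do not stand for all genes past 2-fold. A rule chosen after seeing the data, that the counting interval lies wholly beyond 2-fold, gave 992 higher and 406 lower genes. The leading transcript differed between the WT libraries in 255 of 2170 genes with several transcripts and 5 FPKM or more in both. Depth limits genes near 1 FPKM. No paired analysis was possible because each group was 1 library.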
